A study of Mus musculus with 14 samples.

Results

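The nuclear genes of the respiratory chain and of ATP synthase were examined in whole mouse kidney. Members were taken by symbol: Nduf for complex I and its assembly factors, Sdha to Sdhd for complex II, Uqcr for complex III, Cox4 to Cox8 for complex IV and Atp5 for complex V, without symbols that end in -ps. The rule found 95 genes of the 23682 in both deposited tables, and 94 of them had enough reads to be tested. They comprise 37 genes of complex I, 8 of its assembly factors, 4 of complex II, 8 of complex III, 18 of complex IV, 17 of complex V and 3 that GENCODE M21 annotates as processed pseudogenes. RNA sequencing compared 3 groups of mice. In 5 kidneys, i-TERTci mice were injected with DMSO (vehicle) and had 29, 29, 29, 38 and 31 days on doxycycline. In 5 kidneys, i-TERTci mice were injected with GSK2830371, an inhibitor of the phosphatase WIP1, and had 31, 49, 49, 49 and 28 days on doxycycline. In the 4 control kidneys the mice carried actin-rtTA alone and had 30 days on doxycycline, the only treatment their labels list. The i-TERTci mice carry actin-rtTA and TetOp-TERTci, each heterozygous, so that doxycycline in the drinking water, given to every group, switches on TERTci, a catalytically inactive telomerase reverse transcriptase, in the whole body. Injections were daily and intraperitoneal and began once proteinuria had set in, per the labels, and each library is total RNA of whole kidney.

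The respiratory chain sits in the inner mitochondrial membrane. Complexes I and II feed electrons from NADH and from succinate to ubiquinone, complex III passes them to cytochrome c, and complex IV passes them to oxygen. Complexes I, III and IV pump protons, and complex V (ATP synthase) uses that gradient to make ATP. Core subunits of complexes I, III, IV and V are encoded partly by the mitochondrial genome, while all other subunits, including all of complex II, come from the nucleus. The proximal tubule of the kidney is rich in mitochondria, since its transport relies on oxidative ATP production.

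Values are normalized counts, meaning reads divided by 1 median-of-ratios size factor per library, and changes are log2 differences with their standard error (SE) from limma, computed after adding 1. A gene was said to rise or fall where limma's p, adjusted by Benjamini-Hochberg over all 18810 genes tested, was under 0.05. Libraries held 47194888 to 48846771 reads in genes in the DMSO group, 48434771 to 49422279 in the GSK2830371 group and 48469086 to 64581825 in the controls. Reads of the mitochondrial genome made up 4.95% to 9.52% in the DMSO group, 5.07% to 8.35% in the GSK2830371 group and 14.4% to 24.2% in the controls, and the control libraries carry names in a block of their own, so genotype and library block cannot be told apart. Xist, a transcript that marks female tissue, passed 1000 reads in all 4 controls but in 2 of 5 DMSO and 3 of 5 GSK2830371 libraries. Each comparison with the controls thus also mixes Xist status with genotype. Of 10 proximal tubule markers, 6 fell in the DMSO group and 7 in the GSK2830371 group, and none rose in either. Their summed level was 193290 to 1400800 in the DMSO group, 114290 to 686890 in the GSK2830371 group and 1346400 to 2138100 in the controls. All 7 neutrophil markers rose in both comparisons, with a summed level of 729.7 to 29760 in the DMSO group, 316 to 20659 in the GSK2830371 group and 28.8 to 107 in the controls. Of 7 distal convoluted tubule and collecting duct markers 5 fell in both comparisons, with a summed level of 25621 to 56404 in the DMSO group, 39992 to 52918 in the GSK2830371 group and 73747 to 87454 in the controls. Of 6 macrophage markers 3 rose in both, while Csf1r fell in the DMSO group (-0.86, adjusted p = 0.033, limma). Of 5 loop of Henle markers 1 rose in both, and of 5 podocyte markers 2 fell in both. Over all genes tested, 25.2% rose and 23.1% fell in the DMSO group, and 24.3% rose and 22.1% fell in the GSK2830371 group. The part of these marker shifts in the values of the members was not tested. In such bulk samples, fewer cells of a type and less RNA per cell cannot be told apart.

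The set split, with more genes lower than higher. In the DMSO group against the controls, 10 of 94 members rose and 34 fell, against 25.2% and 23.1% of all genes tested (48.3% in either direction). This is 10.6% of the members higher and 36.2% lower. In the GSK2830371 group against the controls, 6 members rose and 36 fell, against 24.3% and 22.1% of all genes (46.3% in either direction). The median log2 change of the members was -0.10 in the DMSO group and -0.21 in the GSK2830371 group, against 0.03 and 0.01 for all genes tested. Every DMSO library lay above every control for 10 members and below every control for 20, while 20% and 18.8% of all genes did so. Every GSK2830371 library lay above every control for 6 members and below for 34, against 20.8% and 19.6% of all genes. The 2 comparisons share the same 4 controls. The split depends on scaling. Dividing by all reads in genes moved the median of all genes to 0.34 in both comparisons and gave 32 higher and 25 lower in the DMSO group and 29 higher and 29 lower in the GSK2830371 group. Without reads of the mitochondrial genome in the total, the counts were 23 higher and 32 lower in the DMSO group and 14 higher and 35 lower in the GSK2830371 group, with a median of all genes of 0.15 and 0.12.

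**Figure D1:**
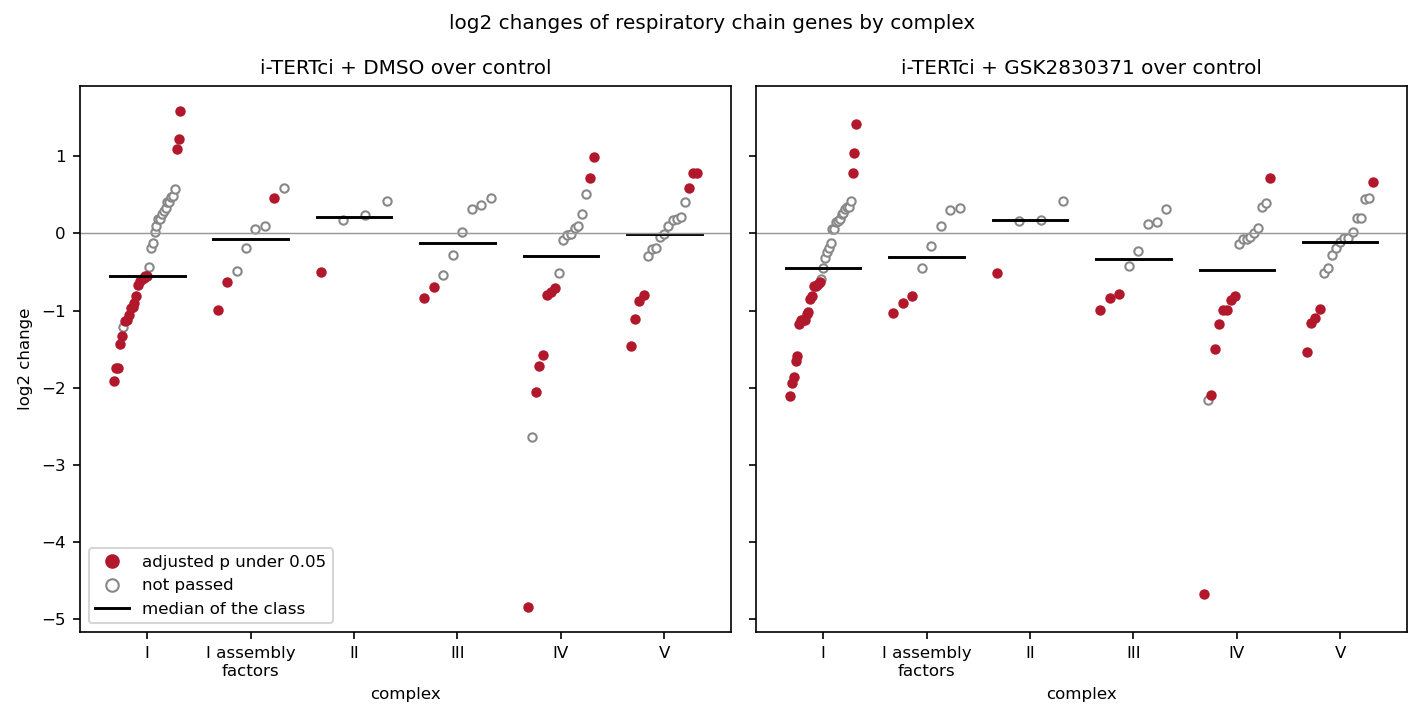
log2 change of each tested member against the 4 controls, in the DMSO group (left panel) and in the GSK2830371 group (right panel), by complex. Filled points passed an adjusted p of 0.05 in limma, open points did not, and bars are medians of the class. The lowest points are Cox6a2 of complex IV, at -4.84 and -4.67, and the annotated pseudogenes are not drawn.

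Complex I, the largest class, held the largest number of genes that fell. Of its 37 genes, 18 fell and 3 rose in the DMSO group, with a median log2 change of -0.55, and in the GSK2830371 group 17 fell and 3 rose, with a median of -0.44. The share that fell was 48.6% in the DMSO group and 45.9% in the GSK2830371 group. It was 38.9% and 44.4% for complex IV, 25% and 37.5% for complex III and 23.5% in both for complex V. Over all genes tested it was 23.1% and 22.1%, so complex V, and complex III in the DMSO group, lay near that share. The share of all genes that rose was 25.2% and 24.3%, and the counts per complex below stand against these shares. Among the 7 core genes, whose products carry the flavin, the iron-sulfur clusters and the quinone site, 3 fell in each comparison and none rose. The 3 were Ndufs7 and Ndufs8, which hold iron-sulfur clusters next to the quinone site, and Ndufv2, of the NADH-oxidizing tip.

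Ndufs8 (chr19:3908863-3912774, GRCm38, as are all coordinates here) had 6215, 4039, 3048, 4195 and 4150.1 in the DMSO kidneys, 4158, 2851, 4841, 4767 and 2789.7 in the GSK2830371 kidneys and 16903, 12784, 7712 and 9990.1 in the controls. Every i-TERTci library was below the lowest control. The log2 changes were -1.43 ± 0.25 (SE, adjusted p = 0.00031, limma) in the DMSO group and -1.59 ± 0.25 (adjusted p = 0.00015) in the GSK2830371 group. Ndufs7 changed by -1.12 and -1.17 on the log2 scale in the same order, and Ndufv2 by -0.55 and -0.65. The Ndufv2 calls held in 29 and 33 of 35 alternatives and were lost with total scaling and with libraries of 31 days or fewer, and the call in the DMSO group also without control replicate 1 and without DMSO replicate 2, 3 or 5. The core genes for the largest iron-sulfur subunit and for the NADH-binding flavoprotein did not pass the test. Ndufs1 averaged 10168 ± 2478 in the DMSO group, 9964 ± 2553 in the GSK2830371 group and 8743 ± 862 in the controls (SD, n = 5, 5 and 4). Ndufv1 averaged 11339 ± 3084, 10475 ± 1987 and 8340.4 ± 846 in the same order, with adjusted p = 0.1 and 0.21 in limma.

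The 30 accessory genes of complex I, which surround the core and are needed for its assembly or stability, held genes that fell and genes that rose. In the DMSO group 15 fell and 3 rose, and in the GSK2830371 group 14 fell and 3 rose. Ndufb9, at chr15:58933756-58939488 and part of the membrane arm, had 2427, 1519.9, 1192, 1445 and 1129.7 in the DMSO kidneys, 1613, 998, 1713, 1199 and 1076 in the GSK2830371 kidneys and 7611, 5153, 5641 and 4371 in the controls. All 10 i-TERTci values were below all 4 control values. The corresponding log2 changes were -1.91 ± 0.23 (adjusted p = 1.6e-05, limma) and -2.11 ± 0.23 (adjusted p = 7.1e-06). Ndufa3 (chr7:3617373-3620327), also of the membrane arm, had 4752, 3390.0, 2789, 3636 and 2899 in the DMSO kidneys, 3511, 2728, 3367, 3280.3 and 2264 in the GSK2830371 kidneys and 18444, 11175, 8021 and 10379 in the controls. Again no i-TERTci library reached a control. Its log2 changes were -1.74 ± 0.23 (adjusted p = 2.6e-05, limma) and -1.94 ± 0.23 (adjusted p = 1.1e-05). Ndufb8 and Ndufb2 of the membrane arm fell by 1.75 and 1.34 on the log2 scale in the DMSO group, and by 1.65 and 1.86 in the GSK2830371 group. Ndufv3, a small subunit of the NADH-oxidizing tip, and Ndufa12, which is needed for late assembly, fell by 1.14 and 1.06 in the DMSO group and by 1.01 and 1.12 in the GSK2830371 group.

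The 3 accessory genes of complex I that rose did so in both comparisons. Ndufa1 (chrX:37187588-37191163), a small membrane arm subunit needed for assembly, had 11416, 7033, 6108, 7249.8 and 6034 in the DMSO kidneys, 7902, 6197, 7419.6, 5945 and 5505 in the GSK2830371 kidneys and 3158, 2216, 2870.1 and 1761 in the controls. Every i-TERTci library was above every control, and DMSO replicate 1 stood highest. This gave log2 changes of 1.59 ± 0.21 (adjusted p = 3.1e-05, limma) and 1.42 ± 0.21 (adjusted p = 9e-05). Ndufb6 (chr4:40270591-40279421), also of the membrane arm, had 6884, 4567, 3867, 5120.0 and 4403 in the DMSO kidneys, 5500.1, 4204, 4102, 4644 and 3341 in the GSK2830371 kidneys and 2458, 1969, 2389 and 1627 in the controls. No i-TERTci library overlapped the controls. Relative to the controls, the log2 changes were 1.23 ± 0.19 (adjusted p = 0.00011, limma) and 1.05 ± 0.19 (adjusted p = 0.00043). The exons of Ndufb6 overlap Smim27 on the opposite strand over 39% of their length, and the strand setting of the counting is not given in the sources used here, so reads of the pair may be mixed. Ndufb1, the third, changed by 1.10 ± 0.24 and 0.78 ± 0.24. GENCODE M21 lists the same gene ID as Ndufb1-ps.

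**Figure D2:**
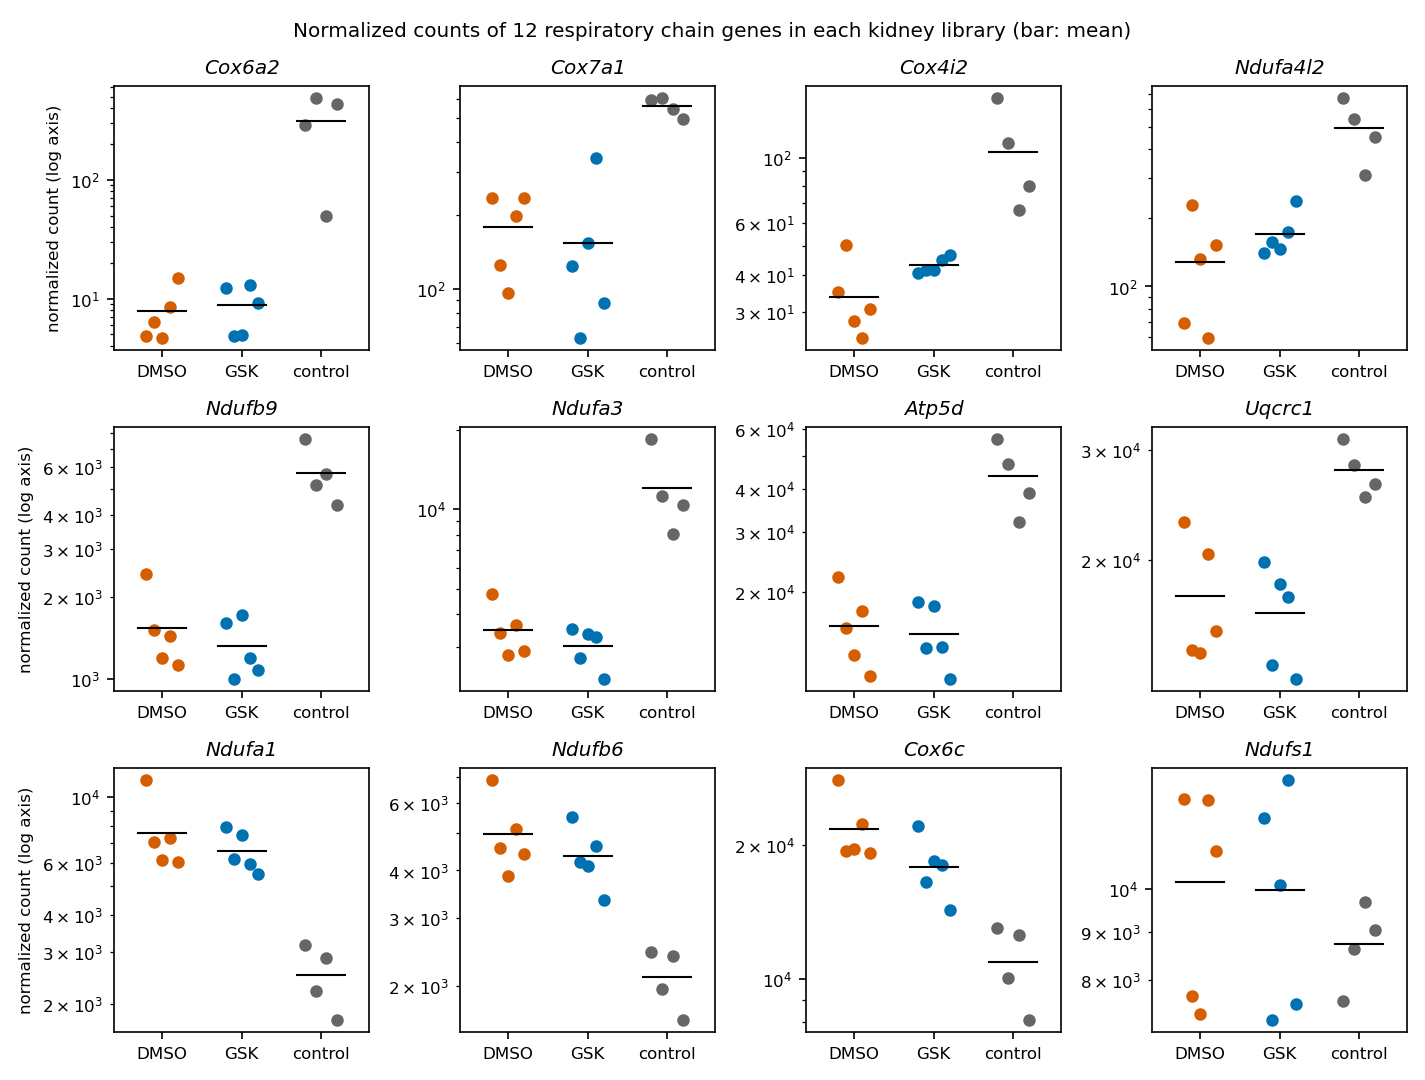
Normalized counts (log axis, with its own range in each panel) of 12 members in every library of the DMSO group, the GSK2830371 group (GSK) and the controls, with bars at the group means. Cox6a2 to Uqcrc1 lie lower in both i-TERTci groups, Ndufa1, Ndufb6 and Cox6c lie higher, and for Ndufs1 the groups overlap.

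Ndufs5, an accessory subunit facing the intermembrane space, had the widest spread between i-TERTci mice of all complex I genes and is named for that reason, after its values were seen. It had 1800.4, 319, 239, 304 and 241 in the DMSO kidneys, 2405, 276, 2195, 1139.6 and 210.3 in the GSK2830371 kidneys and 1415, 1134, 1055 and 427 in the controls. In the DMSO group replicate 1 stood far above the other 4, and in the GSK2830371 group replicates 1 and 3 stood highest and replicates 2 and 5 lowest. The adjusted p was 0.23 in the DMSO group and 0.87 in the GSK2830371 group (limma). A row outside the rule, Ndufs5-ps (BC002163 in GENCODE M21), is annotated as a processed pseudogene on chromosome 16 and matches the Ndufs5 transcript at 317 of 319 bases. The stretch that holds both differing positions is shown because it is all that tells reads of the pair apart within the copy. The differing bases are in capitals, and the sequences are from the GENCODE M21 transcripts, 5′ to 3′.
Ndufs5, minus strand of chr4:123712710-123718202, transcript bases 308 to 372: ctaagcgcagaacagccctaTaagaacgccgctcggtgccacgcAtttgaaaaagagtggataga
Ndufs5-ps, plus strand of chr16:42955631-42955949, bases 61 to 125: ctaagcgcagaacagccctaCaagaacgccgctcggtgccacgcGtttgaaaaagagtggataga
Ndufs5-ps had 1534, 1718, 1295, 1769 and 1437 in the DMSO kidneys, 54.1, 1375, 39.4, 911 and 1244 in the GSK2830371 kidneys and 525, 459, 499 and 647 in the controls. The libraries with the most Ndufs5 in the GSK2830371 group, replicates 1 and 3, had the least of the copy. Of the reads of the pair, Ndufs5 took 54, 15.7, 15.6, 14.7 and 14.4 percent in the DMSO kidneys, 97.8, 16.7, 98.2, 55.6 and 14.5 percent in the GSK2830371 kidneys and 73, 71.2, 67.9 and 39.8 percent in the controls. The 10 i-TERTci shares thus lay at 3 separate levels. The sum of both rows was 2131 ± 711 in the DMSO group, 1969.9 ± 413 in the GSK2830371 group and 1540.5 ± 356 in the controls (SD, n = 5, 5 and 4), and the groups overlapped.

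**Figure D3:**
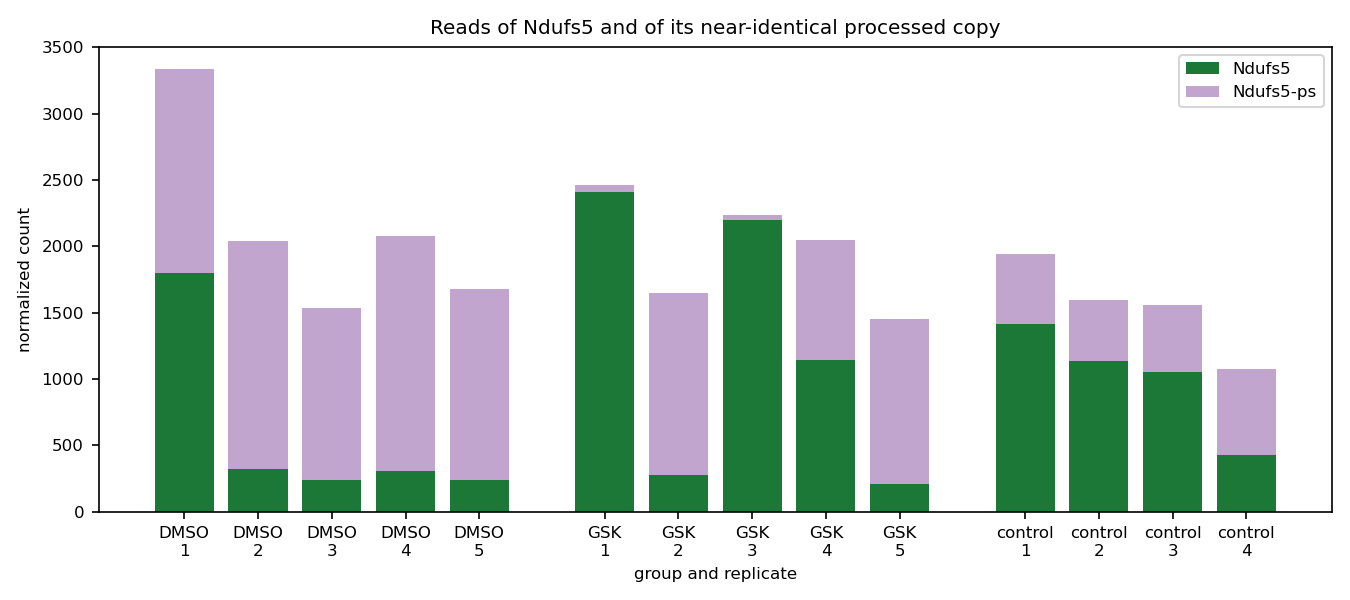
Normalized counts of Ndufs5 and of its near-identical row Ndufs5-ps, stacked, in each library (DMSO, GSK2830371 shown as GSK, control). The share of Ndufs5 is 14.4% to 16.7% in 6 i-TERTci libraries, 54.0% and 55.6% in 2, and 97.8% and 98.2% in 2.

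The 8 Ndufaf genes build complex I but are not part of it. In the DMSO group 2 fell and 1 rose, and in the GSK2830371 group 3 fell. Ndufaf3, which acts on the early quinone module, had 677, 569, 503, 413 and 514 in the DMSO kidneys, 551, 332, 757, 571 and 457 in the GSK2830371 kidneys and 1308, 1046, 1070.0 and 839 in the controls. No i-TERTci library reached the lowest control. Its log2 changes were -0.99 ± 0.22 (adjusted p = 0.0018, limma) and -1.03 ± 0.22 (adjusted p = 0.0015). Ndufaf8 changed by -0.63 and -0.91, and its call in the DMSO group held in 23 of 35 alternative settings. Ndufaf4 fell in the GSK2830371 group by 0.81 and had -0.49 (adjusted p = 0.1) in the DMSO group. Ndufaf7, a mitochondrial methyltransferase, rose in the DMSO group by 0.46 ± 0.16 (adjusted p = 0.027, limma), a call that held in 25 of 35 alternatives, and had 0.33 (adjusted p = 0.11) in the GSK2830371 group.

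Complex II, succinate dehydrogenase, is the smallest and also works in the tricarboxylic acid cycle. Of its 4 genes only Sdhb, the iron-sulfur subunit, passed. Sdhb had 17338, 11930.0, 11663, 12713 and 12478 in the DMSO kidneys, 16345, 10225, 16022, 13487 and 10332 in the GSK2830371 kidneys and 19919.8, 20064, 17627 and 16877 in the controls. DMSO replicate 1 lay within the range of the controls and the other i-TERTci libraries lay below it. The log2 changes were -0.51 ± 0.18 (adjusted p = 0.032, limma) and -0.51 ± 0.18 (adjusted p = 0.031), and the calls held in 23 and 25 of 35 alternatives. Sdha, the flavoprotein, had 37799, 25368, 23341, 31987 and 29385 in the DMSO kidneys, 34273, 22400.3, 34446, 33443 and 24004 in the GSK2830371 kidneys and 16824, 22111, 25449.6 and 23486 in the controls. Its log2 changes were 0.42 and 0.43, with adjusted p = 0.093 and 0.094 in limma. Sdhc and Sdhd, the membrane anchors, had log2 changes between 0.16 and 0.24 and did not pass.

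In complex III, 2 of 8 genes fell in the DMSO group and 3 in the GSK2830371 group, and none rose. Uqcrc1, a core protein of the matrix side, had 22992, 14360.2, 14206, 20474 and 15402 in the DMSO kidneys, 19893, 13579.6, 18320.3, 17449 and 12871 in the GSK2830371 kidneys and 31291, 28462, 25248 and 26499 in the controls. All i-TERTci values were below all control values. The corresponding log2 changes were -0.70 ± 0.19 (adjusted p = 0.0073, limma) and -0.78 ± 0.19 (adjusted p = 0.0038). With a correction for transcript GC, described further on, its adjusted p was 0.246 and 0.127. Uqcr11, a small subunit, changed by -0.84 ± 0.23 and -1.0 ± 0.23, and with that correction its adjusted p was 0.26 and 0.0843. Uqcrq, another small subunit, fell in the GSK2830371 group by 0.83, against -0.53 (adjusted p = 0.062) in the DMSO group. The catalytic Rieske protein gene Uqcrfs1 averaged 14526 ± 4728 in the DMSO group, 13000.4 ± 2983 in the GSK2830371 group and 10196 ± 977 in the controls (SD, n = 5, 5 and 4) and did not pass (adjusted p = 0.1 and 0.25, limma). The second core protein gene, Uqcrc2, had log2 changes of 0.31 and 0.12 and did not pass.

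Complex IV, cytochrome c oxidase, divided into its common subunits and the isoforms used in muscle, fat, testis or low oxygen. Among 12 common genes 3 fell and 2 rose in the DMSO group, and 3 fell and 1 rose in the GSK2830371 group, with medians of 0.03 and -0.06. Among the 6 isoform genes 4 fell in the DMSO group and 5 in the GSK2830371 group, none rose, and the medians were -1.89 and -1.80. Among the 7 common genes that did not pass in the DMSO group, Cox4i1 averaged 32455 ± 8627 in the DMSO group, 28736 ± 5074 in the GSK2830371 group and 22563 ± 3963 in the controls (SD, n = 5, 5 and 4), with adjusted p = 0.056 and 0.18 in limma. Cox5a had log2 changes of -0.01 and -0.07, Cox6a1 of -0.02 and -0.05, and Cox7a2 of 0.10 and -0.08. With the GC correction Cox6a1 rose in the DMSO group, by 0.48 (adjusted p = 0.0456, limma).

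Cox6c (chr15:35925886-35938246) and Ndufa4 were the 2 common genes that rose. Cox6c had 27996, 19402, 19589, 22254 and 19239 in the DMSO kidneys, 22103, 16489.8, 18413, 18043 and 14320.0 in the GSK2830371 kidneys and 13016, 10068, 12594 and 8078 in the controls. Every i-TERTci library exceeded every control. This gave log2 changes of 1.0 ± 0.19 (adjusted p = 0.0005, limma) and 0.72 ± 0.19 (adjusted p = 0.0055). Ndufa4, named for complex I and now known as a subunit of complex IV, rose in the DMSO group by 0.72 ± 0.24 (adjusted p = 0.019, limma). In the GSK2830371 group it had 0.40 (adjusted p = 0.18). Its call in the DMSO group held in 27 of 35 alternatives and had the opposite sign under the joint GC and length correction. The 3 common genes that fell were Cox5b, Cox6b1 and Cox8a, by 0.80, 0.76 and 0.71 in the DMSO group and by 0.99, 0.99 and 0.81 in the GSK2830371 group. With the GC correction Cox8a had adjusted p = 0.389 and 0.189.

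The isoform genes had fewer reads than their partners. Cox7a1 had the largest share of its pair in the controls, with a median of 10.6% per transcript length. Its median share was 2.95% in the DMSO group and 2.30% in the GSK2830371 group. Cox6a2 (chr7:128205435-128206387), the heart and skeletal muscle form of Cox6a1, had 4.84, 6.42, 4.63, 8.46 and 14.9 in the DMSO kidneys, 12.4, 4.84, 4.93, 13 and 9.18 in the GSK2830371 kidneys and 288, 487, 49.1 and 429.6 in the controls. The highest i-TERTci value was below the lowest control, and control replicate 3 was the lowest of the 4. Relative to the controls, the log2 changes were -4.84 ± 0.59 (adjusted p = 1.4e-05, limma) and -4.67 ± 0.59 (adjusted p = 2.1e-05). Per transcript length, Cox6a2 made up at most 0.0455% of the Cox6a pair in the DMSO group, 0.0367% in the GSK2830371 group and 1.19% in the controls. Of 8 listed skeletal and cardiac muscle markers 7 were in the tables and 3 could be tested, and the heavy chains Myh1 and Myh6 fell in both comparisons. The summed level of the list was 16.9 to 274.5 in the DMSO group, 27.1 to 94.6 in the GSK2830371 group and 342 to 439 in the controls. Myh1 alone had 223, 331, 292 and 227 in the controls. Markers too low to test went both ways. Tnnt3 averaged 15.3 in the DMSO group (62.9 in replicate 1), 5.77 in the GSK2830371 group and 1.01 in the controls. In the same order, Tnnc2 averaged 6.67, 2.74 and 0.25, Ckm 4.42, 0.737 and 2.59, and Actc1 2.84, 0.225 and 6.33. The skeletal actin gene Acta1 had 112, 10.1, 6.49, 10.6 and 3.31 in the DMSO kidneys, 7.89, 10.6, 0.986, 8.66 and 13.4 in the GSK2830371 kidneys and 14.3, 6.49, 4.01 and 10.6 in the controls, and its groups overlapped. The part of muscle RNA in the Cox6a2 values was not tested.

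Cox7a1 (chr7:30184144-30186078), the muscle and brown fat form of Cox7a2, had 236, 126, 96.4, 199.8 and 236 in the DMSO kidneys, 124, 62.9, 154, 343 and 87.6 in the GSK2830371 kidneys and 591, 603, 543 and 496 in the controls. GSK2830371 replicate 4 was the highest i-TERTci library and still below the controls. The log2 changes were -1.72 ± 0.40 (adjusted p = 0.0024, limma) and -2.10 ± 0.40 (adjusted p = 0.00064). Cox8b, the muscle and brown fat form of Cox8a, spread widely. It had 4.84, 105, 149, 27.5 and 165 in the DMSO kidneys, 112, 33.9, 199, 342 and 7.51 in the GSK2830371 kidneys and 278, 584, 272 and 277 in the controls. Every DMSO library was below the controls, while GSK2830371 replicate 4 lay among them. Cox8b did not pass (adjusted p = 0.06 and 0.12, limma). GSK2830371 replicate 4 also carried the adipocyte markers: the brown fat uncoupler Ucp1 had 1372 there and at most 0.968 in the other GSK2830371 libraries, and Adipoq had 1313. The summed white adipocyte list was 10.9 to 240.1 in the DMSO group, 31.6 to 10602 in the GSK2830371 group and 46.4 to 836 in the controls. Of 4 tested white adipocyte markers, 1 fell in the DMSO group (Cfd, -7.02, adjusted p = 0.017, limma) and 2 of 4 brown ones fell there (Cidea, -3.10, adjusted p = 0.035, and Ppargc1a). None of either list rose in either comparison, and none fell in the GSK2830371 group. The part of fat RNA in the Cox7a1 and Cox8b values was not tested. Without that library Cox7a1 had a log2 change of -2.45 and Cox8b of -2.71 (adjusted p = 0.0577) in the GSK2830371 group.

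The genes known as low-oxygen forms fell too. Ndufa4l2, an isoform of Ndufa4 that is a target of HIF-1, had 68.9, 227, 132, 59.2 and 152 in the DMSO kidneys, 139.8, 157, 146, 173 and 236 in the GSK2830371 kidneys and 671, 545, 309 and 453 in the controls. All i-TERTci values were below the lowest control. The corresponding log2 changes were -2.06 ± 0.36 (adjusted p = 0.00028, limma) and -1.50 ± 0.36 (adjusted p = 0.0031). Cox4i2, the low-oxygen form of Cox4i1, had 35.1, 50.4, 27.8, 24.3 and 30.6 in the DMSO kidneys, 40.6, 41.6, 41.4, 45 and 46.7 in the GSK2830371 kidneys and 159, 112, 66.2 and 80 in the controls. Again the i-TERTci libraries did not overlap the controls, with log2 changes of -1.57 ± 0.30 (adjusted p = 0.00062, limma) and -1.18 ± 0.30 (adjusted p = 0.005). Per transcript length, the median share of Ndufa4l2 in its pair was 0.647% in the DMSO group, 0.785% in the GSK2830371 group and 3.85% in the controls. Cox6b2, the testis form of Cox6b1, fell in the GSK2830371 group by 0.86, a call that held in 23 of 35 alternatives, and had -0.51 (adjusted p = 0.18) in the DMSO group.

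Complex V held 17 genes, of which 4 fell and 3 rose in the DMSO group and 4 fell and 1 rose in the GSK2830371 group, with medians of -0.0019 and -0.10. Its catalytic F1 core has the most abundant member. Per kilobase of transcript Atp5b, the catalytic beta subunit, averaged 60290.0 in the DMSO group, 56530.0 in the GSK2830371 group and 67470.0 in the controls, the highest of all members in the controls. Atp5b had 148778, 88995, 94492, 149550.0 and 95753 normalized counts in the DMSO kidneys, 131892, 88777, 113745, 124805 and 82331 in the GSK2830371 kidneys and 137407, 128759, 124253 and 126680.0 in the controls. The i-TERTci libraries lay on both sides of the controls, and the log2 changes of -0.20 and -0.28 did not pass (adjusted p = 0.47 and 0.32, limma). Atp5a1, the alpha subunit, had log2 changes of 0.18 and 0.20, and Atp5c1, the gamma subunit of the rotor, of -0.05 and -0.10.

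Atp5d (chr10:80138632-80145818), the delta subunit at the foot of the rotor, was the F1 gene that fell. It had 22041, 15634, 13042, 17570.0 and 11332 in the DMSO kidneys, 18652, 13642, 18198, 13789 and 11071 in the GSK2830371 kidneys and 56166, 47434, 32052 and 39080.0 in the controls. No i-TERTci library reached a control. This gave log2 changes of -1.46 ± 0.23 (adjusted p = 0.00012, limma) and -1.53 ± 0.23 (adjusted p = 9.3e-05), and with the GC correction -0.93 and -1.03. Its partner in the foot, the epsilon subunit gene Atp5e, had 0.18 and -0.19 and did not pass, while with the length correction it fell in the DMSO group, by 0.47 (adjusted p = 0.0253, limma). The peripheral stalk, which holds F1 in place, went both ways. Atp5o changed by -1.11 ± 0.19 and -1.16 ± 0.19, and its exons overlap other genes on the opposite strand over 35.6% of their length. Atp5pb, the stalk's b subunit, rose, with 0.78 ± 0.22 (adjusted p = 0.0092, limma) and 0.67 ± 0.22 (adjusted p = 0.023).

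The c ring, which turns as protons pass, is encoded by 3 genes for the same mature protein. Atp5g1 fell by 0.88 and 0.98, Atp5g3 rose by 0.59 in the DMSO group (a call that held in 23 of 35 alternatives) and had 0.44 (adjusted p = 0.1) in the GSK2830371 group, and Atp5g2 had log2 changes of -0.0019 and 0.0247. Atp5g1 had 12834, 7177, 6491, 8064 and 6927 in the DMSO kidneys, 8772, 5859, 10123, 8361 and 5483 in the GSK2830371 kidneys and 16929.7, 14418, 15096 and 12985 in the controls. Atp5g3 had 39484, 21461, 19181, 29855 and 19617 in the DMSO kidneys, 26627, 20500.5, 25034, 22236 and 18830.4 in the GSK2830371 kidneys and 18153, 16006, 18412 and 13909 in the controls. For both genes no i-TERTci library overlapped the controls, in opposite directions. Among the small membrane subunits, Atp5l, the g subunit, rose in the DMSO group by 0.79 ± 0.20 (adjusted p = 0.0052, limma) and had 0.46 (adjusted p = 0.073) in the GSK2830371 group. Atp5md, a subunit also known as DAPIT, fell by 0.80 and 1.10. Annotated copies match Atp5g1 at 99.8% identity, and Atp5g2, Atp5l and Atp5md at 100%, so reads may be shared.

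Libraries of one group differed in the level of the whole set. Taking for each library the median log2 deviation of its complex I genes from the control mean, DMSO replicate 1 stood at 0.26, the other 4 DMSO libraries between -0.75 and -0.39, the GSK2830371 libraries between -0.96 and -0.06 and the controls between -0.23 and 0.34. The medians of complex II were between -0.03 and 0.54 in the DMSO group, -0.19 and 0.49 in the GSK2830371 group and -0.07 and 0.07 in the controls. The summed normalized count of all 95 members was 722092 to 1234446 in the DMSO group, 630126 to 992208 in the GSK2830371 group and 847835 to 1082542 in the controls. The groups overlapped in this sum, and DMSO replicate 1 was the highest of all 14 libraries.

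**Figure D4:**
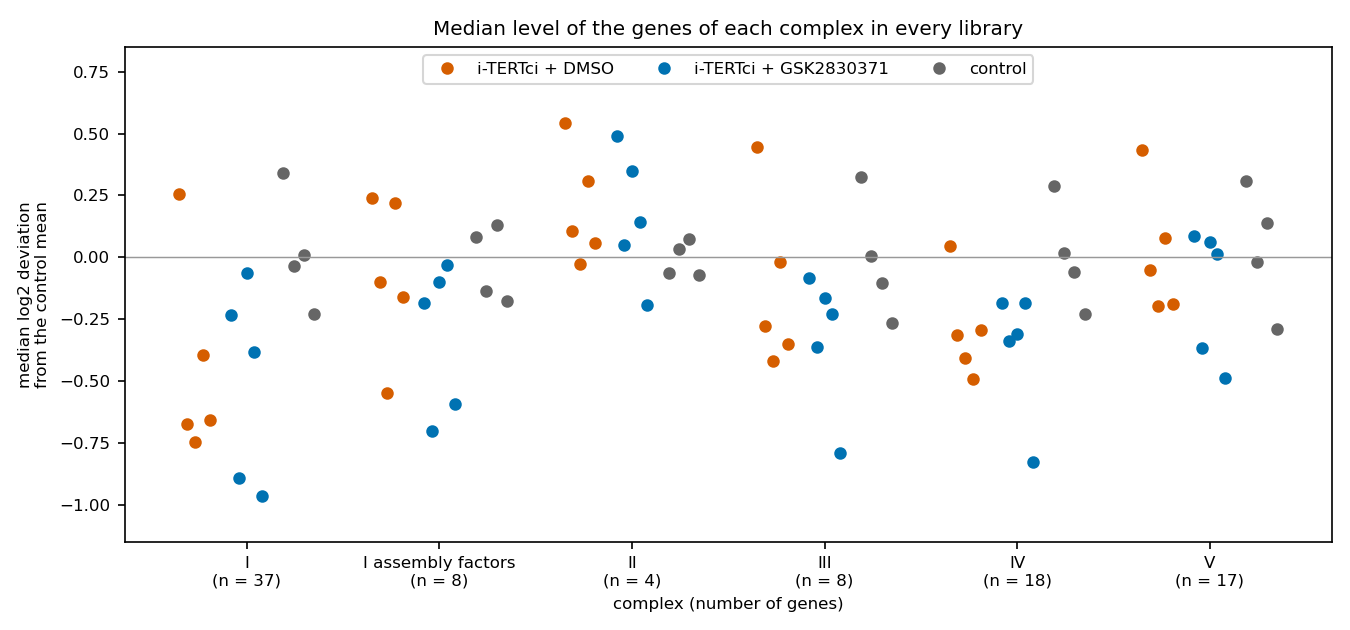
Median log2 deviation from the control mean over the tested genes of each complex, 1 point per library, in the DMSO group, the GSK2830371 group and the controls. For complex I, 4 DMSO libraries lie at -0.39 or below and 1 lies at 0.26, while the controls lie between -0.23 and 0.34.

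GSK2830371 was compared directly with DMSO within the i-TERTci mice. No member rose or fell in this comparison, and no gene of the 18810 did (0% called by limma). Over all genes 800 had an unadjusted p under 0.05 in limma. Of the 94 members, 0 had an unadjusted p under 0.05 in limma, and edgeR, DESeq2 and voom also called 0 members. No member had all GSK2830371 libraries above or below all DMSO libraries, against 0.239% and 0.245% of all genes. The median log2 difference of the members was -0.14, with 79 negative and 15 positive, and it was 0.01 without DMSO replicate 1. The members with the smallest p were Atp5e at -0.37 ± 0.21 (unadjusted p = 0.1), Atp5l at -0.32 ± 0.19 (unadjusted p = 0.11) and Ndufa4l2 at 0.56 ± 0.34 (unadjusted p = 0.12), in limma. Time on doxycycline differed between the groups.

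The log2 changes of the members varied with the GC content of their transcripts. Over the 94 members Spearman's rho between GC and log2 change was -0.38 in the DMSO group and -0.36 in the GSK2830371 group, against -0.27 and -0.26 over the 18331 genes with an annotated transcript, given as descriptions across genes. The relation was not even along the scale. Of 27 members above 55% GC, 15 fell and 1 rose in the DMSO group, of 27 between 50% and 55% 12 fell and 2 rose, of 29 between 45% and 50% 3 fell and 6 rose, and of 11 at 45% or below 4 fell and 1 rose. Of all 4419 genes tested above 55% GC, 1723 fell and 578 rose, and of 4907 between 50% and 55% 1263 fell and 1026 rose. Between 45% and 50%, 824 of 4922 fell and 1434 rose, and at 45% or below 423 of 4083 fell and 1606 rose. From the highest GC bin to the lowest, the median log2 changes were -0.70, -0.43, 0.24 and -0.27 for the members and -0.40, -0.06, 0.17 and 0.41 for all genes tested, so the members at the lowest GC lay on the other side of 0 from all genes. In the GSK2830371 group the members at 45% GC or below had a median of -0.42, with 5 that fell and none that rose, against 0.37 for all genes. Of all 4083 genes in that bin, 402 fell and 1528 rose. With the smooth dependence on GC removed in each library, 26 members were lower and 13 higher in the DMSO group. In the GSK2830371 group 32 were lower and 9 higher. These counts include new calls. Of the 34 lower and 10 higher calls in the DMSO group 24 and 8 remained, and of the 36 and 6 in the GSK2830371 group 30 and 6. Of all 18331 genes, 3843 were then lower and 4239 higher in the DMSO group, and 3691 and 4021 in the GSK2830371 group. Ndufb9, Ndufa3 and Cox7a1 still fell in both comparisons under that correction, and Ndufa1, Ndufb6 and Cox6c still rose.

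**Figure D5:**
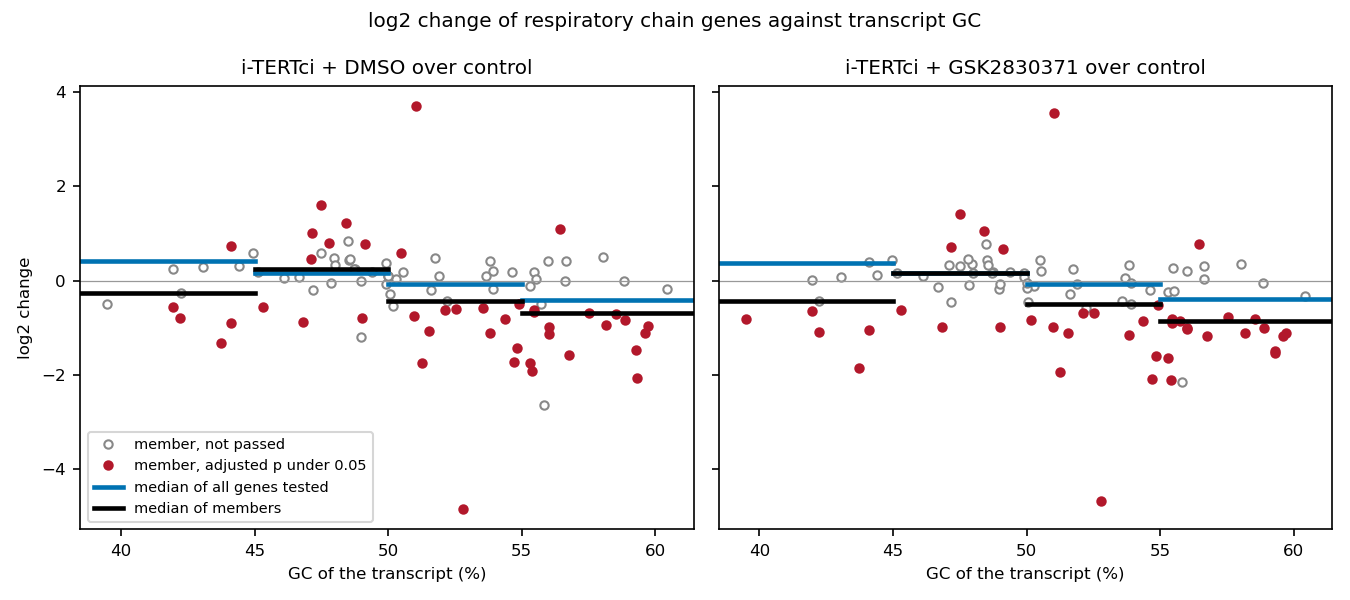
log2 change of each tested member against the GC content of its transcript, in the DMSO group (left panel) and in the GSK2830371 group (right panel). Horizontal bars are medians per GC bin for the members (black) and for all genes tested (blue). Above 55% GC the members' bar is at -0.70 in the DMSO group and -0.86 in the GSK2830371 group.

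Other genes of the pathway outside the rule also went both ways. Of all genes tested, 23.1% fell and 25.2% rose in the DMSO group, and 22.1% fell and 24.3% rose in the GSK2830371 group. Cytochrome c (Cycs) and Higd1a, a hypoxia-inducible protein that binds complex IV, rose in both comparisons, with log2 changes of 1.25 and 1.17 in the DMSO group and 0.89 and 1.01 in the GSK2830371 group. Cycs had 15857, 7896, 8569, 12104 and 6064 in the DMSO kidneys, 10262, 6670.3, 7878, 8618 and 4855 in the GSK2830371 kidneys and 4304, 3959.5, 3815 and 3919 in the controls, and no i-TERTci library overlapped the controls. Cyc1, the cytochrome of complex III, had -0.44 (adjusted p = 0.056) and -0.48 (adjusted p = 0.037, limma). Of 40 tested assembly factors of complexes I to V outside the rule, 12 fell and 3 rose in the DMSO group (median -0.14) and 15 fell and 3 rose in the GSK2830371 group (median -0.31). Cox10, which makes the heme of complex IV, changed by -1.60 and -1.65, and Acad9, of complex I assembly, had -0.37 and -0.24 and did not pass. Of 17 tricarboxylic acid cycle enzymes, 6 fell and 3 rose in the DMSO group and 5 fell and 3 rose in the GSK2830371 group. Citrate synthase (Cs) had -0.43 (adjusted p = 0.049985, limma) and -0.43 (adjusted p = 0.051), and Suclg2, of succinyl-CoA ligase, rose by 1.54 and 1.46. Of 13 subunits encoded by the mitochondrial genome, 7 fell and 4 rose in each comparison. The complex I subunit genes mt-Nd1 and mt-Nd6 went opposite ways. mt-Nd1 fell, with -2.19 and -2.48, and mt-Nd6 rose, with 4.93 (adjusted p = 3.5e-07, limma) and 4.89 (adjusted p = 4.2e-07). The complex IV genes mt-Co2 and mt-Co3 rose by 2.09 and 2.54 in the DMSO group. The 4 genes that rose were low in the controls, at means of 344 (mt-Nd6), 1218 (mt-Co2), 743 (mt-Co3) and 1448 (mt-Atp6). There mt-Nd1 averaged 1840300 and mt-Co1, which had -0.68 in the DMSO group, 2112200. Another low gene, mt-Atp8, averaged 133 in the controls and had -4.28. How reads were assigned to these low rows was not tested.

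Of 14 regulators of mitochondrial biogenesis, 5 fell and 3 rose in the DMSO group and 3 fell and 3 rose in the GSK2830371 group. Over all genes tested the shares were 23.1% and 25.2% in the DMSO group and 22.1% and 24.3% in the GSK2830371 group. Polrmt, the RNA polymerase of mitochondria, had 1145, 1088, 1018, 1465 and 1269 in the DMSO kidneys, 1103, 984, 1339.8, 1202 and 1210.0 in the GSK2830371 kidneys and 2799.8, 3259, 2314 and 2936 in the controls. The i-TERTci libraries did not overlap the controls, and the log2 changes were -1.24 ± 0.15 (adjusted p = 1.3e-05, limma) and -1.27 ± 0.15 (adjusted p = 1.1e-05). The coactivator gene Ppargc1b changed by -1.85 and -1.67 and its partner Esrra by -0.74 and -0.79, while Tfam, which packages and transcribes mitochondrial DNA, rose by 0.82 and 0.76. Ppargc1a fell in the DMSO group (-0.63) and had -0.25 (adjusted p = 0.4) in the GSK2830371 group. Nrf1, a factor known to bind promoters of respiratory genes, did not pass (adjusted p = 0.17 and 0.29, limma).

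Promoters in RefSeq's table (build GRCm38.p6) matched 76 of the 95 members. The 250 bases before the RefSeq start were searched on both strands for exact letters of 5 motifs: NRF1 as GCATGCGC, ETS factors as CCGGAAG, ERR as TCAAGGTCA, YY1 as AAGATGG, and the CCAAT box as CCAAT. The NRF1 letters stood in 9 members (11.8%) against 2.56% of 27025 genes with a promoter in the table, and the ETS letters in 14 (18.4%) against 7.83%. The CCAAT letters stood in 33 (43.4%) against 37.5%, and those of ERR and YY1 in 1 member each (1.32%), against 0.422% and 5.18%. The 27025 genes were not limited to those tested in kidney, so these shares also set expressed genes against all genes. Of all 76 matched members, 30 fell and 8 rose in the DMSO group. Of the 14 with the ETS letters, 4 fell and 2 rose there, and of the 9 with the NRF1 letters 4 fell and 1 rose. A match is a description of these letters only. As examples, 4 promoters are shown 5′ to 3′ on the strand of the gene, with matches in capitals: Cox7a1 fell and holds CCAAT letters alone, Cox6a1 did not pass and holds NRF1, ETS and CCAAT letters, Ndufa11 fell and holds NRF1 letters, and Ndufb6 rose and holds ETS letters. Capitals on the opposite strand read as the reverse complement.
Cox7a1, plus strand, chr7:30183921-30184170: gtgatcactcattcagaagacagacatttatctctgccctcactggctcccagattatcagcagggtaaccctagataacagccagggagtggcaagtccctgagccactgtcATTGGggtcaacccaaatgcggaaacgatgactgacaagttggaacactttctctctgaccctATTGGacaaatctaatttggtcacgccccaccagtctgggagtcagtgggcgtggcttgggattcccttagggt
Cox6a1, minus strand, chr5:115348959-115349208: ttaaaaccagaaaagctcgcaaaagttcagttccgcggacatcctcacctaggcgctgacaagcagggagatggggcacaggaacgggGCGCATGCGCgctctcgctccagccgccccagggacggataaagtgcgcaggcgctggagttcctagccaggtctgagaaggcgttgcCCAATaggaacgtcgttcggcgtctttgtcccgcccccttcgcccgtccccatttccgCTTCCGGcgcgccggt
Ndufa11, plus strand, chr17:56717512-56717761: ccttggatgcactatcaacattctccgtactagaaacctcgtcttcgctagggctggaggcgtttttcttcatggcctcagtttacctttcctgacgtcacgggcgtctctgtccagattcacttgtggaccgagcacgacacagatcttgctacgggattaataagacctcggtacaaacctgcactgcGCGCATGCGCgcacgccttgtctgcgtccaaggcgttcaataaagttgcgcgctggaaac
Ndufb6, minus strand, chr4:40279422-40279671: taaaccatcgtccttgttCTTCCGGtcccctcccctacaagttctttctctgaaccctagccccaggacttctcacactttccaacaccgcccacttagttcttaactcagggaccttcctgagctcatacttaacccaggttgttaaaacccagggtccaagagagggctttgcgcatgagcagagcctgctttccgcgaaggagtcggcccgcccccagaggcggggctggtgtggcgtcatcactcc
Ndufa11, an accessory subunit of complex I, fell with log2 changes of -0.95 ± 0.22 in the DMSO group and -1.12 ± 0.22 in the GSK2830371 group, and its call in the DMSO group was lost with the GC correction.

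Several members share sequence with other annotated genes, which bears on how their reads were assigned. A near-identical copy, at 95% identity or more, was found for 27 of the 95 members. Of the 26 of these that were tested, 9 fell and 4 rose in the DMSO group and 9 fell and 3 rose in the GSK2830371 group, and of the 68 without a copy 25 fell and 6 rose and 27 fell and 3 rose. Ndufb4c, a processed pseudogene that matches Ndufb4 at 100% over 390 bases and was named after its values were seen, had 52, 25.7, 25, 35.9 and 36.4 in the DMSO kidneys, 36.1, 27.1, 44.4, 30.3 and 20 in the GSK2830371 kidneys and 1.1, 4.64, 1 and 1.18 in the controls. Its log2 changes were 3.70 ± 0.39 (adjusted p = 4.7e-06, limma) and 3.56 ± 0.39 (adjusted p = 7.1e-06). Ndufb4 itself had -0.43 and -0.59 and did not pass, and reads of the copy cannot be told apart from those of Ndufb4 over these bases. Cox6c2 did not pass (adjusted p = 0.24 and 0.29, limma), and Ndufs6b had too few reads to be tested. Exons of 12 members (12.6%) overlapped a gene on the opposite strand over more than 10% of their length, against 13.9% of all annotated genes tested.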

How the data were processed

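Total RNA of whole kidney was sequenced in 14 libraries. The deposited values are a signal scale, reads per gene divided by 1 size factor per library, in 2 tables that the authors made with 9 libraries each and the same 4 controls in both. Per the submitters' processing notes, FastQC, Trimmomatic, STAR and DESeq2 were used with build mm10. For the read counter, the annotation and the use of strand, nothing is given in the sources used here. Reads were recovered as whole numbers (within 0.001) for every value, with 0 mismatches between tables for the controls, and were put on 1 set of median-of-ratios size factors. Of 23682 shared genes, 96.191% matched GENCODE M21. The test was limma 3.58.1 (trend, robust, two-sided) in R 4.3.3 on log2(value + 1) over all 14 libraries, for the 18810 genes kept by the read filter of edgeR, with Benjamini-Hochberg adjustment over all of them. No source says whether kidneys of a group came from separate litters, so p-values measure the spread between these kidneys. edgeR 4.0.16 and DESeq2 1.42.0 on recovered reads, voom, other scalings, filters and pseudocounts, GC and length corrections, subsets of libraries and each library left out made 36 alternatives. The test was tried on simulated counts first. Copies were sought with BLAST 2.17.0+, requiring 95% identity. Tables and figures used Python 3.11.15, pandas 2.3.3, numpy 2.4.6 and matplotlib 3.10.9. The rule for named genes took, per class and comparison with the controls, the 2 members with the smallest p among those that rose and the 2 among those that fell, the 3 with the smallest p between GSK2830371 and DMSO, and a set of core subunits and isoform pairs, 33 members in all, plus the head and the smallest p of each context list. Other genes were named after their values were seen, and the promoter motifs were shortened to these letters after longer forms of NRF1 and YY1 had matched fewer promoters. Members and gene lists were chosen with earlier results of these data known.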

Additional observations from a re-analysis of the deposited data

Results flagged for a closer look

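In 7 of 120 groups examined, 1 library stood apart from the rest of its group by Dixon's criterion, which chance alone meets in about 1 group in 20. DMSO replicate 1 was the highest of its group for Sdhb (17338 normalized counts), Ndufa1 (11416) and Atp5e (6973). Among the controls, replicate 1 was the lowest for Atp5a1 (58029.5) and the highest for Cox8a (40631), replicate 2 was the highest for Cox8b (584), and replicate 3 was the highest for Ndufaf7 (1078). Signal was also seen in pseudogene rows that the symbol rule leaves out, where only rises without overlap with the controls were flagged. Atp5l2-ps had 9.11 to 23 normalized counts in the DMSO group and 0.928 to 7.70 in the controls, a log2 change of 1.63. Ndufab1-ps had 14.2 to 25.1 in the GSK2830371 group and 3.53 to 12 in the controls, a log2 change of 1.61. Not flagged, Ndufa12-ps averaged 330 in the DMSO group, 289 in the GSK2830371 group and 1245 in the controls. It fell, with -1.97 (adjusted p = 0.00012, limma) and -2.18 (adjusted p = 5.7e-05). Cox5b-ps fell too (-0.90 and -0.94), and Atp5pb-ps rose (1.16 and 0.99). The members Ndufa12 and Cox5b fell and have annotated copies at 99.5% and 99.2% identity, so reads may be shared.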

How the results depend on the processing

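The settings that moved a count of calls by more than 1.5 times all moved the number of members that rose. In the DMSO group against the controls, where 10 members rose, 32 did with total scaling, 23 with total scaling without the mitochondrial genome and 5 with Xist-positive libraries alone. In the GSK2830371 group, where 6 rose, 29 did with total scaling, 14 without the mitochondrial genome and 3 with libraries of 31 days or fewer. Replicate numbers were not taken as pairs in the main test. Deviations of same-numbered libraries from their group means correlated at -0.06 to 0.09 between DMSO and control. The range was 0.05 to 0.10 between GSK2830371 and control and -0.03 to 0.34 between GSK2830371 and DMSO. No comparison had values above 0.1 in every pair. Still, GSK2830371 replicates 1 to 4 each correlated highest with the same-numbered control. These low correlations do not settle whether the numbers mark pairs. With the replicate block, 20 members rose in the DMSO group (16 with the block and length correction, 17 with the block and GC correction) and 10 in the GSK2830371 group (11 and 13). Leaving out 1 library at a time gave 7 to 14 higher and 27 to 36 lower in the DMSO group, 4 to 8 higher and 33 to 38 lower in the GSK2830371 group, and 0 between GSK2830371 and DMSO. Some values changed sign. In the DMSO group Ndufa4 had -0.0125 with GC and length correction, Atp5e had -0.4748 with length correction (adjusted p = 0.0253, limma) and -0.4312 with the replicate block added (0.0429), and Cox6a1 had 0.4826 with GC correction (0.0456) and 0.5395 with the replicate block added (0.01), so both passed in the opposite direction there. In the GSK2830371 group Cox6a1 had 0.4838 with the replicate block and GC correction (adjusted p = 0.0181, limma). Of the 10 higher and 34 lower calls in the DMSO group, 5 and 20 held in every alternative, and of the 6 and 36 in the GSK2830371 group 3 and 25 did. The cause was not tested. Xist was positive in 2 of 5 DMSO, 3 of 5 GSK2830371 and 4 of 4 control kidneys. With Xist-positive libraries alone, 5 members rose and 31 fell in the DMSO group, and 7 rose and 32 fell in the GSK2830371 group. With Xist status as a covariate, 7 rose and 29 fell in the DMSO group, and 5 rose and 35 fell in the GSK2830371 group.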
